A study of Mus musculus with 8 samples.

Results

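House dust mite (HDM), an inhaled allergen, was compared with phosphate-buffered saline (PBS) in lung cells of mice carrying a conditional knockout of STAT3 (STAT3-cKO, called cKO here). The contrast is cKO HDM against cKO PBS, with 2 libraries in each group. It was measured on the 7512 genes, of 25124 in the table, whose mean was at least 10 normalized counts over the 8 libraries of the study. Of the 17612 genes not tested, 10223 had no read in any library and 7389 had reads but a lower mean. Nearest the minimum, G6pdx was kept with a mean of 10.002 (12.3 and 9.97 in cKO HDM, 3.25 and 2.54 in cKO PBS), and Orc2 was left out with a mean of 9.9995 (18.1 and 6.64 in cKO HDM, 19.5 and 17.8 in cKO PBS).

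The study profiled bulk RNA of flow-sorted lung cells, labelled as airway epithelium, from C57BL/6 mice. Its 4 groups of 2 libraries were cKO HDM, cKO PBS, STAT3-WT (WT) HDM and WT PBS. All groups share the strain, the tissue and the sort, and the series text speaks of sensitization with HDM. The sources used here do not give the cell type in which Stat3 was deleted, the Cre line, the dosing of HDM, or age and sex. Whether replicate libraries stand for different animals is not stated, so p-values reflect only library-to-library spread, part or all of which may be technical.

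Epithelium meets HDM first, and the type 2 cytokines IL-4 and IL-13 that follow act on it through the receptor chains Il4ra and Il13ra1 and the transcription factor STAT6. In mice this drives secretion of chitinase-like proteins, resistin-like proteins and mucus, while genes of secretory club cells decline. STAT3 is a related transcription factor, activated by the IL-6 and IL-10 families of cytokines, and it is encoded by a different gene from STAT6.

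The cKO HDM libraries held 510931 and 454248 reads, against 232556 and 298311 in the cKO PBS libraries, which were the shallowest of the study. Reads were detected from 11591 and 11163 genes in cKO HDM and from 9209 and 10126 in cKO PBS. Of the genes tested, 5 had no read in either cKO HDM library and 57 had none in either cKO PBS library, so detection moved with the comparison. For counting error alone, a value of 0 allows up to 3 reads, taken here as the floor. That is 2.18 and 2.49 normalized counts in cKO HDM and 4.88 and 3.81 in cKO PBS. Replicates differed by more than counting error, with a chi-square per degree of freedom of 5.58 in cKO HDM and 6.27 in cKO PBS. A floor is therefore no bound on the mean of a group. Values correlated across genes (log2 scale) at r = 0.77 between the cKO HDM libraries and at r = 0.56 between the cKO PBS libraries. Genes are not independent replicates, and these r values only describe the libraries.

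The targeted gene did not mark the genotype under PBS. Stat3 had 76.9 and 92.2 normalized counts in cKO HDM, against 56.9 and 96.5 in cKO PBS. The WT libraries had 134 and 157 under HDM and 75.8 and 40.9 under PBS. Under HDM both cKO libraries were below both WT libraries, whereas under PBS the genotypes overlapped. These are totals over the whole gene, and the deleted exons are not named in the labels, so cKO and WT below are the names on the labels.

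The label of the cells was checked on markers. Epcam, an epithelial surface protein, had 127 and 99.7 normalized counts in cKO HDM against 133 and 151 in cKO PBS. Cdh1, the epithelial cadherin, had 776 and 694 in cKO HDM against 792 and 861 in cKO PBS. Ptprc, carried by leukocytes, had 0 reads in all 4 cKO libraries, and of 26 macrophage and dendritic cell markers 15 had none, among them Adgre1 and Cd68. A further 8 of these markers had reads in cKO but a mean under the minimum, with at most 16.3 normalized counts in a cKO library. Sftpc, a surfactant protein of alveolar type 2 cells, had 856 and 801 in cKO HDM against 981 and 1209 in cKO PBS. The sorted cells therefore included alveolar transcripts as well as those of conducting airway. In such bulk RNA, fewer cells of a type and less RNA per cell cannot be told apart.

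Promoters of 4 genes are shown first, 3 of which carry letters of the kind STAT factors bind. Chil4 and Chia1 passed the test described below, whereas Chil3 and Retnla did not and are shown for their matches. The 3 matches among these 4 are therefore no measure of how often such letters occur. The promoters are RefSeq sequences of build GRCm38.p6, from 250 bases before the annotated start to 50 after it, given 5′ to 3′ on the gene's own strand. Chil4 is at chr3:106219430-106219729 (minus strand), Chil3 at chr3:106167515-106167814 (minus strand), Retnla at chr16:48842359-48842658 (plus strand) and Chia1 at chr3:106113132-106113431 (plus strand). Capitals mark matches to TTCNNNGAA, a spacing of 3 bases, or to the same letters with 1 more N, a spacing of 4. Both strands were searched, and both patterns read the same on either strand.
Chil4: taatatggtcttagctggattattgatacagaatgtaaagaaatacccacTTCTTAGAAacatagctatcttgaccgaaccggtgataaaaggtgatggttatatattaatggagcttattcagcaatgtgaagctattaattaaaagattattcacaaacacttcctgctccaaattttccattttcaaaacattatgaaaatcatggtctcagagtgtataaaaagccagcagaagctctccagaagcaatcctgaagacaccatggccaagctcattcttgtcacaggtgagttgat
Chil3: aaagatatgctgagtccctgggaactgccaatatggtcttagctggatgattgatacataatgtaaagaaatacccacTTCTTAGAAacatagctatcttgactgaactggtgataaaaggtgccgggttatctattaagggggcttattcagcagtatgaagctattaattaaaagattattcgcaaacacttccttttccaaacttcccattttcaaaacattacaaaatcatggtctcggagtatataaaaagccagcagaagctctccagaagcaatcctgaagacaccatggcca
Retnla: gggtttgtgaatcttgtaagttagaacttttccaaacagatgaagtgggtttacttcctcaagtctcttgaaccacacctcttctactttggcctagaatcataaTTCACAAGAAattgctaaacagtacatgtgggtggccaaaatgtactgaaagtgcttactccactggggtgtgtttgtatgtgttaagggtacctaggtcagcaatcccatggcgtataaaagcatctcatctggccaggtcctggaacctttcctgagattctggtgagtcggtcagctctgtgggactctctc
Chia1: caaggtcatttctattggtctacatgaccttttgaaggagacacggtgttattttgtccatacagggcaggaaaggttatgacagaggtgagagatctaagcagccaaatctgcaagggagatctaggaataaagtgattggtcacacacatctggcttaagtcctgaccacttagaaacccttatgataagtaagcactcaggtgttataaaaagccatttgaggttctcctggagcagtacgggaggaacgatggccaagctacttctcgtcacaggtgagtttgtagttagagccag

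Chil4 and Chil3 each held the spacing of 3 once, as the same letters, at 200 and 172 bases before their annotated starts. Retnla held the spacing of 4 once, at 145 bases before its start. Chia1 held neither in this window, nor did the windows of Timp2 and Vim. The spacing of 3 occurred in 8.30% of 32851 promoters of this length, and the spacing of 4 in 6.95%. Among 7775 promoters of the genes tested these shares were 6.16% and 4.80%. For 14 of the 20 tested IL-13 and mucous genes 16 promoters were found. Of these, 3 held the first pattern (Chil4, Chil3 and Bpifb1, 18.75%) and 1 the second (Retnla, 6.25%). These matches describe letters, and no binding was measured. The Chil4 and Chil3 windows were identical at 92.3% of aligned bases and their transcripts at 94.3%, so reads may have been split between them with error. Chil4 and Chia1 transcripts were identical at 74.9%.

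In cKO cells 4 genes rose with HDM: 2 members of the chitinase family, Chil4 and Chia1, and 2 genes of the extracellular matrix, Fn1 and Timp2. Genes that passed in this direction were 0.0532% of those tested (limma, Benjamini-Hochberg adjusted p under 0.05). In the opposite direction 0 of 7512 passed with limma, with 180 at an unadjusted p under 0.05, 0 with edgeR and 7 with DESeq2. At an unadjusted p under 0.05 stood 7.77% of the genes tested, with 5.38% higher in cKO HDM and 2.4% lower. In 19% both cKO HDM libraries were above both cKO PBS libraries, and in 16.7% both were below. The median log2 fold change of the 7512 genes was 0.10. With the 4 cKO libraries alone in the fit, so that the WT libraries lent nothing to the estimate of spread, 0 genes passed (356 at an unadjusted p under 0.05).

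Chil4 (chr3:106201490-106219507, minus strand, mm10, protein-coding) encodes Ym2, a chitinase-like protein without chitinase activity. It had 189 and 434 normalized counts in cKO HDM, against 0 and 3.81 in cKO PBS. The cKO PBS values lie at or below the floor, whereas both HDM libraries were far above it. Over both libraries this was 784 reads in cKO HDM and 3 in cKO PBS, a ratio of 142 after scaling by the size factors, with a 95% interval of 48.4 to 690 for counting error only. The rise was 7.04 ± 0.86 on the log2(value + 1) scale used for fold changes here (limma standard error, adjusted p = 0.0045). Such values understate the change of low genes.

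Chia1 (chr3:106113229-106132120, plus strand, mm10, protein-coding) encodes acidic mammalian chitinase, an enzyme that cleaves chitin, a polymer found in mites. It had 321 and 206 normalized counts in cKO HDM, against 17.9 and 44.4 in cKO PBS. The groups did not overlap, and Chia1 rose by 3.14 ± 0.44 log2 units (limma adjusted p = 0.0104). Chil3, which encodes Ym1, had 31.9 and 12.5 in cKO HDM against 0 and 1.27 in cKO PBS, or 59 reads against 1. That ratio of 32.0 has a 95% interval of 5.53 to 1287 for counting error, and the log2 fold change of 3.80 ± 0.85 did not pass (limma adjusted p = 0.190). Chil1, a chitinase-like protein abundant in alveolar type 2 cells, had 506 and 523 in cKO HDM against 228 and 289.5 in cKO PBS. Its log2 fold change of 1.00 ± 0.23 did not pass (limma adjusted p = 0.216), although the groups did not overlap. Chid1 overlapped between the groups at 0.03 ± 0.76. Of the 5 tested chitinase genes, 2 passed, and the median was 3.14. At an unadjusted p under 0.05 stood 4, all higher in cKO HDM (80%, against 5.38% of all genes).

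**Figure D1:**
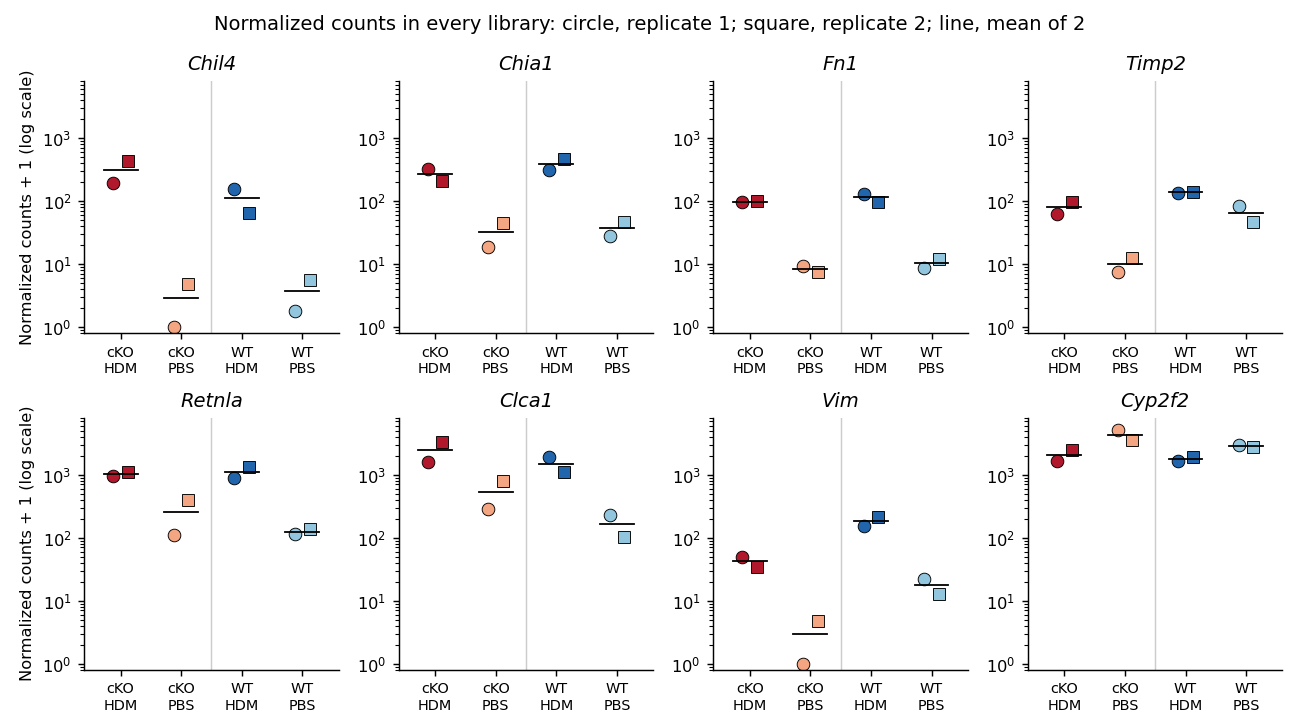
Normalized counts plus 1 on a log axis for 8 genes in every library, with cKO HDM and cKO PBS left of WT HDM and WT PBS in each panel, circles for replicate 1, squares for replicate 2 and lines at the mean of 2 libraries. Chil4, Chia1, Fn1, Timp2, Retnla, Clca1 and Vim were higher in both cKO HDM libraries than in both cKO PBS libraries, and Cyp2f2 was lower in both.

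The wider list of IL-13 and mucous genes held 20 tested members. In it 2 passed, and 8 were higher at an unadjusted p under 0.05 (40%, against 5.38% of all genes) and 0 lower. The median log2 fold change was 1.53. That median was 0.83 without the second cKO HDM library and 0.90 under quantile normalization. Both cKO HDM libraries were above both cKO PBS libraries for 9 members (45%) and below for 1 (5%). Over all genes tested these shares were 19% and 16.7%. Retnla, a secreted resistin-like protein of type 2 inflammation, had 938 and 1119.6 normalized counts in cKO HDM, against 107 and 394 in cKO PBS. Its PBS libraries differed from each other, yet both lay below the HDM libraries, at 2.31 ± 0.41 log2 units (limma adjusted p = 0.0632). Clca1, a secreted protein of mucous cells, had 1565 and 3287 in cKO HDM against 283 and 784 in cKO PBS. That is 2.27 ± 0.46 log2 units without passing (limma adjusted p = 0.130).

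Genes of the mucus itself were split. Fcgbp, a mucus protein, had 284 and 895 normalized counts in cKO HDM, against 129 and 123 in cKO PBS (1.99 ± 0.46 log2 units, limma adjusted p = 0.222). Pla2g4c, a phospholipase, had 31.2 and 68.9 in cKO HDM and no read in either cKO PBS library. Its cKO HDM mean was 11.5 times a floor of 3 reads per cKO PBS library, which covers counting error only. Agr2, which helps mucins fold, had 6.53 and 46.5 in cKO HDM against 6.51 and 0 in cKO PBS, so its higher mean came from the second HDM library. The gel-forming mucins overlapped between the groups. Muc5ac had 31.9 and 103 in cKO HDM against 9.76 and 50.8 in cKO PBS (1.31 ± 0.96 log2 units, limma adjusted p = 0.750). Muc5b had 152 and 662 in cKO HDM against 631 and 331 in cKO PBS.

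Il4ra, Il13ra1 and Stat6 overlapped between the cKO groups. Il4ra had 8.71 and 11.6 normalized counts in cKO HDM against 9.76 and 10.2 in cKO PBS. Il13ra1 had 90.0 and 105 in cKO HDM against 127 and 97.8 in cKO PBS. Stat6 had 82.7 and 99.7 in cKO HDM against 120.4 and 52.1 in cKO PBS. Of 15 tested genes of STAT6 and type 2 cytokine signalling, 2 had both HDM libraries above (13.3%) and 3 both below (20%) the PBS libraries. Over all genes tested these shares were 19% and 16.7%. At an unadjusted p under 0.05 stood 1 member, higher in cKO HDM (6.67%, against 5.38% of all genes), so the list lay near the shares of all genes. That member was Cish, a feedback inhibitor of cytokine receptors, with 29.8 and 12.5 in cKO HDM against 3.25 and 0 in cKO PBS. Cish did not pass (3.30 ± 1.17 log2 units, limma adjusted p = 0.537). Of the IL-13 and mucous list, 15 further members had a mean under the minimum, among them Spdef, a goblet cell transcription factor, with 5.81 and 26.6 in cKO HDM against 0 and 6.35 in cKO PBS. No read of Foxa3, another goblet cell factor, was found in the cKO libraries.

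Matrix genes gave the other passing members. Fn1 (chr1:71585520-71653200, minus strand, mm10, protein-coding) encodes fibronectin, an adhesive matrix protein. It had 95.1 and 97.2 normalized counts in cKO HDM, against 8.13 and 6.35 in cKO PBS. The cKO PBS values come from 5 reads in each library. Fn1 rose by 3.57 ± 0.52 log2 units (limma adjusted p = 0.0128).

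Timp2 (chr11:118301069-118355740, minus strand, mm10, protein-coding) encodes an inhibitor of matrix metalloproteinases. It had 60.2 and 95.5 normalized counts in cKO HDM, against 6.51 and 11.4 in cKO PBS, which come from 4 and 9 reads. The groups did not overlap, and the rise was 2.99 ± 0.47 log2 units (limma adjusted p = 0.0198). Vim, the intermediate filament of mesenchymal and migrating cells, came next with 48.6 and 33.2 in cKO HDM against 0 and 3.81 in cKO PBS. Vim did not pass (4.23 ± 0.75, limma adjusted p = 0.0628), and its 107 reads against 3 give a ratio of 19.4 with a 95% interval of 6.45 to 95.4.

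The matrix remodelling list had few members like these. Of its 26 tested members 14 were negative, and the median was -0.05. That median was 0.11 with thinned reads and 0.15 without the first cKO PBS library. Without the first or the second cKO HDM library it was 0.04 and 0.32. Of the 26 members 2 passed and 5 were higher at an unadjusted p under 0.05 (19.2%, against 5.38% of all genes). Those past the unadjusted threshold were Fn1, Timp2 and Vim, with Sparc, a collagen-binding matrix protein (27.6 and 34.1 normalized counts in cKO HDM against 0 and 5.08 in cKO PBS), and with Timp3, an inhibitor like Timp2 (184 and 97.2 in cKO HDM against 0 and 61.0 in cKO PBS). Sparc had an adjusted p of 0.190 and Timp3 one of 0.420 with limma. Of 19 collagen and laminin genes, 4 were higher at an unadjusted p under 0.05 (21.1%, against 5.38% of all genes) and 0 lower. The median of this list was 0.59 (0.14 under quantile normalization, 0.23 with edgeR and 1.104 without the second cKO PBS library). Col4a1, of basement membranes, had 63.1 and 48.2 in cKO HDM against 9.76 and 31.7 in cKO PBS, and Col1a1, of fibroblasts, had 22.5 and 22.4 against 9.76 and 7.62 in cKO PBS.

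Fibroblast markers stood as follows beside these genes. The fibroblast and smooth muscle list took 0.387% and 0.366% of reads in cKO HDM, against 0.484% and 0.431% in cKO PBS. Gsn, which many cell types express, gave most of it, with 1826 and 1525 reads in cKO HDM against 1104 and 1194 in cKO PBS. The collagens of the list lay the other way. At an unadjusted p under 0.05, 3 of its 6 tested members were higher in cKO HDM (50%, against 5.38% of all genes). Col3a1 had 82 and 54 reads in cKO HDM against 10 and 30 in cKO PBS. Pdgfra, a defining fibroblast receptor, had 0 and 4.15 normalized counts in cKO HDM against 8.13 and 5.08 in cKO PBS. These values are near the floors of 3 reads, 2.18 and 2.49 in cKO HDM and 4.88 and 3.81 in cKO PBS. No direction is read from them. The part of fibroblast RNA in the Fn1 and Timp2 results was not tested. The calls of Chil4, Chia1 and Fn1 were lost on leaving out either cKO HDM library (adjusted p from 0.060 to 0.271) or either WT HDM library (0.050 to 0.107), and were kept without any 1 PBS library. The call of Timp2 was kept only without either cKO PBS library (adjusted p = 0.0136 without the first and 0.00097 without the second).

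**Figure D2:**
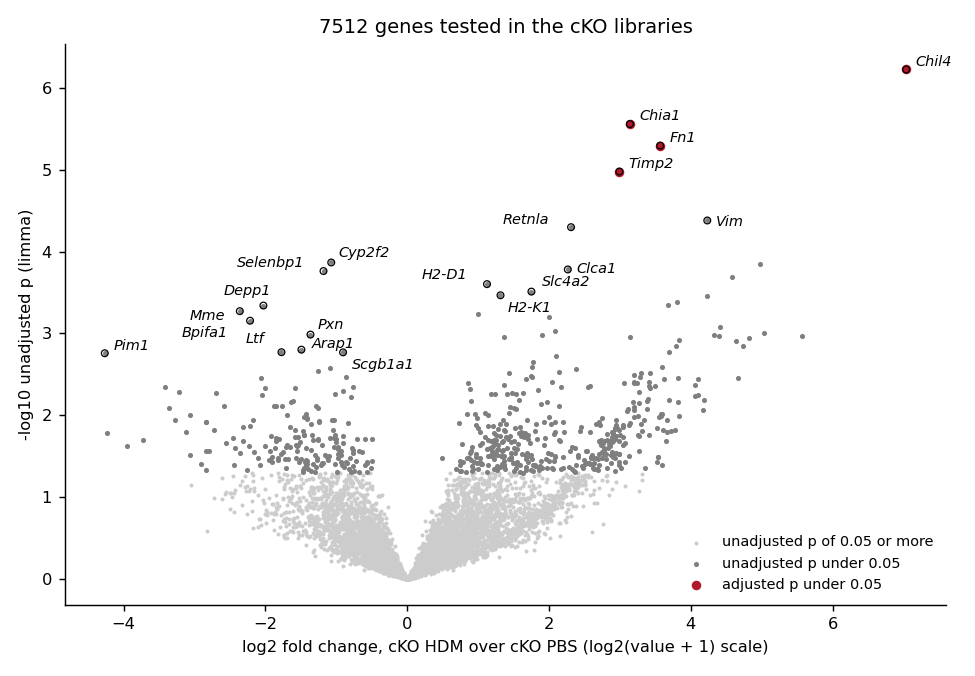
Each point is 1 of 7512 genes, with the log2 fold change of cKO HDM over cKO PBS across and the negative log10 of the unadjusted limma p upwards; red points have an adjusted p under 0.05 and circled points are named. Chil4, Chia1, Fn1 and Timp2 stand above the rest on the right, and no gene on the left is red.

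Genes of MHC class I antigen presentation lay mostly above the median of all genes. Of 18 tested members 17 had a positive fold change, as did 55.5% of all genes tested. At an unadjusted p under 0.05, 6 were higher (33.3%, against 5.38% of all genes) and 0 lower. The median was 0.88 (0.49 under quantile normalization and 0.44 with edgeR), with 0 past the adjusted threshold in either direction by limma. H2-K1, a classical class I heavy chain, had 481 and 493 normalized counts in cKO HDM, against 155 and 246 in cKO PBS. Its log2 fold change was 1.32 ± 0.29 (limma adjusted p = 0.175, DESeq2 adjusted p = 0.0132). H2-D1, another heavy chain, had 492 and 459 in cKO HDM against 233 and 203 in cKO PBS (1.13 ± 0.24, limma adjusted p = 0.157, DESeq2 adjusted p = 0.0077). B2m, the light chain they share, had 153 and 174 in cKO HDM against 71.6 and 80.0 in cKO PBS, and Tap2, a peptide transporter subunit, had 87.8 and 63.1 against 34.2 and 38.1 in cKO PBS. The H2 genes are close copies and may share reads.

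With all libraries no gene of the interferon-stimulated list passed with limma. Of 27 tested members 1 was higher at an unadjusted p under 0.05 (3.7%, against 5.38% of all genes). It was the GTPase Ifi47, with 38.5 and 29.9 normalized counts in cKO HDM against 0 and 17.8 in cKO PBS. The median of the list was 0.66 (0.31 under quantile normalization, 0.34 with edgeR and -0.20 without the first cKO PBS library). Ifi47, Parp9 and Rnf213 rose by 5.13, 4.34 and 2.75 log2 units without the second cKO PBS library. In that fit, which left 1 cKO PBS library, calls rose over all genes tested and not in this list alone. MHC class II genes, which antigen-presenting cells carry, had no common direction. Of 6 tested members 3 were positive and 3 negative with none at an unadjusted p under 0.05, and the median was -0.23 (0.02 once all libraries were thinned to the same number of reads, 0.58 without the second cKO HDM library and 0.36 without the second cKO PBS library). Cd74, the class II invariant chain, had 127 and 93.0 in cKO HDM against 42.3 and 88.9 in cKO PBS. H2-Aa, a class II chain, had 17.4 and 15.8 in cKO HDM against 32.5 and 21.6 in cKO PBS.

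Lower values in cKO HDM included those of club cells, the secretory cells of the small airways. Of 25 tested club cell genes 8 were lower at an unadjusted p under 0.05 (32%, against 2.4% of all genes) and 0 higher. The median was -0.47, and 0 passed with limma. Without the first cKO HDM library the median of the list was 0.05, so its sign rested on that library. Cyp2f2, a cytochrome of club cells, had 1660.3 and 2454 normalized counts in cKO HDM, against 5044 and 3569.6 in cKO PBS. The groups did not overlap (-1.07 ± 0.21 log2 units, limma adjusted p = 0.130). Scgb1a1, their major secretoglobin, had 1589 and 2189 in cKO HDM against 4213 and 2897 in cKO PBS (-0.90 ± 0.24, limma adjusted p = 0.311). Selenbp1, a selenium-binding protein outside that list, had 200.3 and 243 in cKO HDM against 563 and 446 in cKO PBS (-1.18 ± 0.24, limma adjusted p = 0.130). The 10 lower genes of smallest p also held Depp1, Pxn and Arap1, which are in none of the gene lists. Depp1, a gene induced by FOXO factors, had 14.5 and 27.4 in cKO HDM against 102 and 69.8 in cKO PBS (-2.03 ± 0.46, limma adjusted p = 0.190). Pxn, which encodes the focal adhesion protein paxillin, had 48.6 and 40.7 in cKO HDM against 99.2 and 136 in cKO PBS, and Arap1, a regulator of small GTPases, had 77.6 and 62.3 against 216 and 180.3 in cKO PBS. DESeq2 on the recovered reads gave adjusted p values of 0.00097 for Cyp2f2, 0.0421 for Scgb1a1, 0.0021 for Selenbp1 and 0.0429 for Depp1. The whole club cell list took 2.61% and 3.40% of reads in cKO HDM, against 5.08% and 3.93% in cKO PBS. In WT its share was also lower under HDM, at 2.35% and 2.56% against 3.54% and 3.22% under PBS.

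Secreted antimicrobial proteins of the airway were low in the first cKO HDM library above all. Bpifa1, an airway surface protein, had 120.5 and 653 normalized counts in cKO HDM, against 1581 and 1083 in cKO PBS. Ltf, which encodes lactoferrin, had 67.5 and 285 in cKO HDM against 486 and 469 in cKO PBS. Scgb3a1, a secretoglobin, had 37.0 and 274 in cKO HDM against 496 and 270.5 in cKO PBS, so its groups overlapped. Without the second cKO HDM library these 3 genes were the ones that passed, at -3.43, -2.80 and -3.27 log2 units, and the 4 genes named above did not. With all libraries none of the 3 passed (limma adjusted p of 0.239 for Bpifa1, 0.311 for Ltf and 0.488 for Scgb3a1). The list of 17 antimicrobial and acute-phase genes also held Lcn2, which encodes lipocalin 2, with 18.1 and 18.3 in cKO HDM against 0 and 7.62 in cKO PBS, and C3, the central complement protein, with 449 and 603 against 264 and 371 in cKO PBS. That list had 2 members higher (11.8%) and 4 lower (23.5%) at an unadjusted p under 0.05. Over all genes tested these shares were 5.38% and 2.4%.

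Targets of STAT3 had no common direction in cKO cells. Of 27 tested members 2 were higher (7.41%) and 3 lower (11.1%) at an unadjusted p under 0.05. Over all genes tested these shares were 5.38% and 2.4%. The median was 0.18, which became -0.03 under quantile normalization and -0.08 with thinned reads, and -0.19 without the first cKO PBS library. At an unadjusted p under 0.05, 5 members had a lower response in cKO than in WT (18.5%, against 3.46% of all genes). At that threshold 0 had a higher one. Pim1, a kinase induced by cytokines, had no read in either cKO HDM library, against 13.01 and 25.4 normalized counts in cKO PBS (8 and 20 reads). Its cKO PBS mean was 8.23 times a floor of 3 reads per cKO HDM library, which covers counting error only. Pim1 did not pass with limma (adjusted p = 0.312), whereas it did with DESeq2 (adjusted p = 0.0132). Socs3, the feedback inhibitor of STAT3, had 31.9 and 30.7 in cKO HDM against 8.13 and 36.8 in cKO PBS. Junb and Fos, transcription factors of the immediate early response, had limma unadjusted p values of 0.0192 and 0.0383, with 112 and 129.6 for Junb in cKO HDM against 229 and 171 in cKO PBS. The 29 immediate early genes had a median of -0.38 (-0.14 without the second cKO PBS library). At an unadjusted p under 0.05, 4 were lower (13.8%, against 2.4% of all genes) and 1 higher (3.45%, against 5.38%). The higher one was Gadd45g, a stress-response gene, with 37.7 and 74.8 in cKO HDM against 16.3 and 16.5 in cKO PBS.

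**Figure D3:**
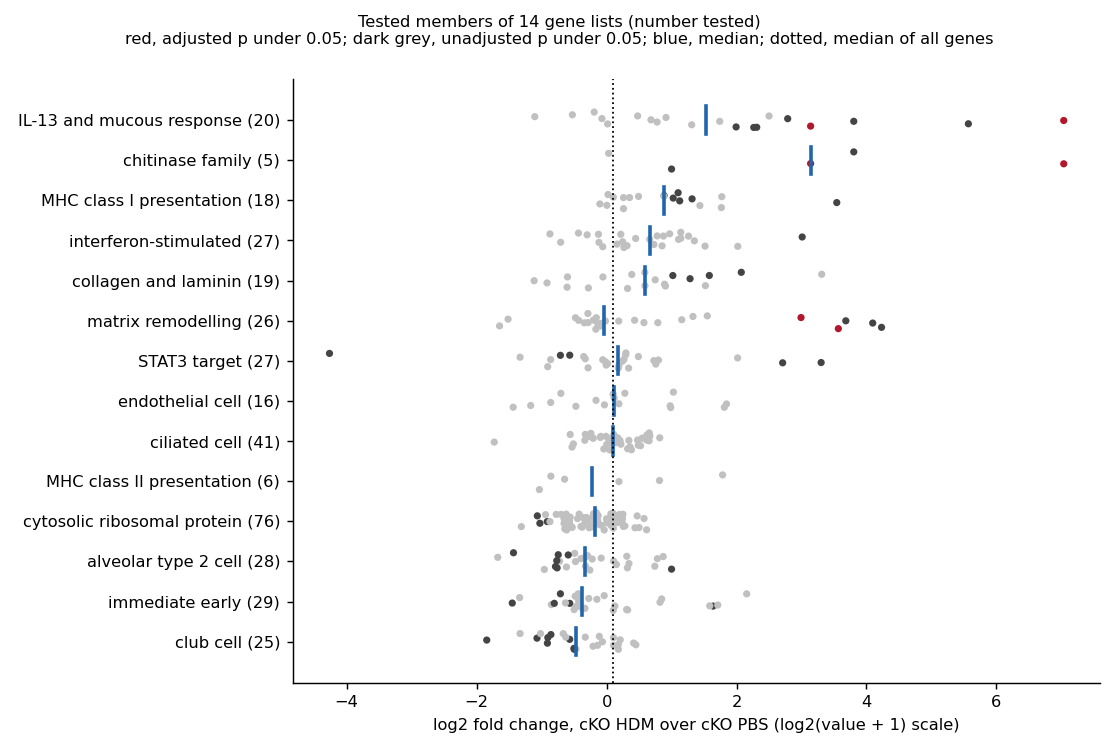
Each point is a tested member of 1 of 14 gene lists, placed by its log2 fold change of cKO HDM over cKO PBS, with a blue line at the list's median and a dotted line at the median of all genes, 0.10. The chitinase and the IL-13 and mucous lists have medians of 3.14 and 1.53 and hold 2 red points each, the same genes, and the club cell list has the lowest median, -0.47, which is 0.05 without the first cKO HDM library.

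The response of cKO cells differed from that of WT cells for 2 genes, Scd1 and Hc, by the test of the difference itself. Genes lower in that difference (cKO minus WT) were 0.0266% of those tested, and 0 were higher by limma or edgeR and 1 by DESeq2, with 324 higher at an unadjusted p under 0.05 (7.77% of genes in either direction). Scd1 (chr19:44394455-44407879, minus strand, mm10) encodes a fatty acid desaturase. It had 194 and 243 normalized counts in cKO HDM against 293 and 481 in cKO PBS, and 2243 and 2569 in WT HDM libraries, with 599 and 670.2 in WT PBS. Both cKO HDM libraries were below both cKO PBS libraries, whereas both WT HDM libraries were above both WT PBS libraries. The response in cKO minus that in WT was -2.71 ± 0.35 log2 units (limma adjusted p = 0.0083).

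Hc (chr2:34983331-35061438, minus strand, mm10) encodes complement C5. It had 106 and 88.9 normalized counts in cKO HDM against 133 and 112 in cKO PBS, and 701 and 565 in WT HDM libraries, with 88.8 and 149 in WT PBS. The cKO groups lay close together, whereas the WT groups were far apart. The difference was -2.77 ± 0.43 log2 units (limma adjusted p = 0.0386). Leaving out a library other than those of cKO PBS ended the call of Hc, and the call of Scd1 held only without the second cKO HDM library or either cKO PBS library (adjusted p from 0.00029 to 0.324 for Scd1 and from 0.00998 to 0.650 for Hc).

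Alveolar type 2 markers moved with this difference. Of 28 tested genes of that list, Scd1 and Hc among them, 23 had a lower response in cKO than in WT at an unadjusted p under 0.05, against 3.46% of all genes, and the medians were -0.33 in cKO and 1.40 in WT. Fasn, fatty acid synthase, had 105 and 109 normalized counts in cKO HDM against 187 and 139.7 in cKO PBS, and 526 and 442 in WT HDM libraries, with 183 and 193 in WT PBS. Sftpb, a surfactant protein, had 486 and 589 in cKO HDM against 909 and 907 in cKO PBS, and 1069 and 1734 in WT HDM libraries, with 766 and 778 in WT PBS. The list took 1.75% and 1.88% of reads in cKO HDM against 1.88% and 2.14% in cKO PBS. It took 4.43% and 5.57% in WT HDM, with 1.78% and 2.32% in WT PBS. The part of these markers in the Scd1 and Hc results was not tested.

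Other lists differed in the same sense. Of 16 endothelial genes 11 had a lower response in cKO at an unadjusted p under 0.05, with medians of 0.11 in cKO (-0.32 under quantile normalization and -0.30 to -0.12 without the second cKO HDM library or either cKO PBS library) and 2.34 in WT. The endothelial list took 0.0746% and 0.0909% of reads in cKO HDM against 0.103% and 0.0828% in cKO PBS. In WT it took 0.379% of reads in each HDM library against 0.0939% and 0.0895% in PBS. Macrophage and dendritic cell markers took 0.102% of reads in each cKO HDM library against 0.129% and 0.166% in cKO PBS, nearly all from Lyz2, which alveolar type 2 cells also express. In WT they took 0.321% and 0.588% under HDM and 0.101% and 0.203% under PBS. Lymphocyte markers stayed between 0% and 0.0018% in the cKO libraries, and took 0.0123% and 0.0356% in WT HDM and at most 0.0036% in WT PBS. Erythroid markers took 0.0597% and 0.104% in WT HDM and at most 0.0097% in any other library, and the fibroblast list took 0.615% and 0.682% in WT HDM and 0.363% and 0.427% in WT PBS. The part of these cells in the differences between genotypes was not tested. The ciliated cell list differed in the opposite sense. Of 41 tested members 15 had a higher response in cKO at an unadjusted p under 0.05, against 4.31% of all genes, and 0 a lower one. Its median was 0.10 in cKO and -0.65 in WT, and Foxj1, the regulator of ciliated cells, had 809.8 and 682 normalized counts in cKO HDM against 708 and 485 in cKO PBS.

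**Figure D4:**
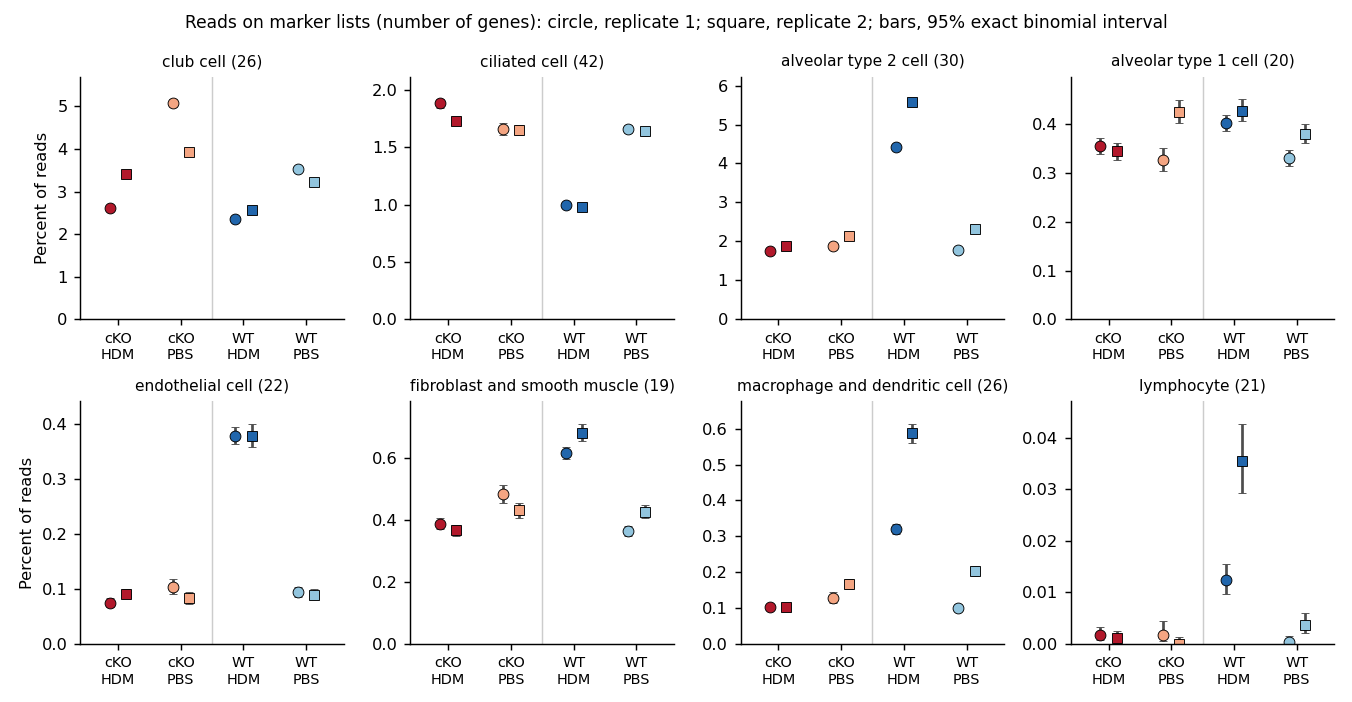
Percent of reads on 8 marker lists in every library, with cKO HDM and cKO PBS left of WT HDM and WT PBS, circles for replicate 1, squares for replicate 2 and bars for the exact 95% binomial interval, which covers counting error only. Alveolar type 2, endothelial and macrophage shares are higher in WT HDM than in the other groups. In each genotype the club cell share is lower in both HDM libraries than in both PBS libraries.

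Set beside WT, the genes that rose in cKO cells had these values. Chil4 had 154 and 64.5 normalized counts in WT HDM libraries, with 0.765 and 4.55 in WT PBS, a log2 fold change of 5.01 ± 0.86. The difference for Chil4 was 2.03, with a 95% interval of -0.56 to 4.62 (limma adjusted p = 0.691). Chia1 differed by -0.25, with an interval of -1.56 to 1.06, and Fn1 by 0.10, with an interval of -1.47 to 1.67. All 3 intervals include 0 and each is more than 2 log2 units wide.

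Timp2 had 134 and 138 normalized counts in WT HDM libraries, with 81.1 and 44.6 in WT PBS. Its difference was 1.83, with an interval of 0.43 to 3.23 (limma unadjusted p = 0.0139, adjusted p = 0.547). Retnla and Clca1 differed by -0.82 and -0.96 with intervals that include 0. Of 38 genes that passed in WT HDM against WT PBS (0.506% of those tested), 3 also passed in cKO, which is 7.89% of the WT genes and 75% of the cKO genes. In cKO both HDM libraries were above both PBS libraries for 20 of the 38, and both were below for 6. Over all genes tested these shares were 19% and 16.7%, so the 6 lie near the share of all genes.

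Opposite directions in the genotypes were seen for Pim1 and Mme, which did not pass with limma in cKO or in the difference. In cKO HDM against cKO PBS both passed with DESeq2 (adjusted p = 0.0132 for Pim1 and 0.0429 for Mme). Pim1 had 43.7 and 94.1 normalized counts in WT HDM libraries, with 3.83 and 4.55 in WT PBS, while cKO HDM had none. The fitted difference of -7.92 ± 1.59 log2 units (limma adjusted p = 0.155) depends on the pseudocount, since cKO HDM was at 0. Mme, a membrane peptidase, had 17.4 and 7.48 in cKO HDM against 68.3 and 58.4 in cKO PBS, and 110 and 103 in WT HDM libraries, with 21.4 and 56.4 in WT PBS (difference of -3.94 ± 0.76, limma adjusted p = 0.140). Il33, an epithelial alarmin, had 20.3 and 13.3 in cKO HDM against 11.4 and 6.35 in cKO PBS, and 104 and 162 in WT HDM libraries, with 8.42 and 20.9 in WT PBS (difference of -2.32 ± 0.93, limma adjusted p = 0.589). Col3a1, a fibroblast collagen, differed by -3.21 ± 0.61 (limma adjusted p = 0.140), with 59.5 and 44.9 in cKO HDM against 16.3 and 38.1 in cKO PBS.

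**Figure D5:**
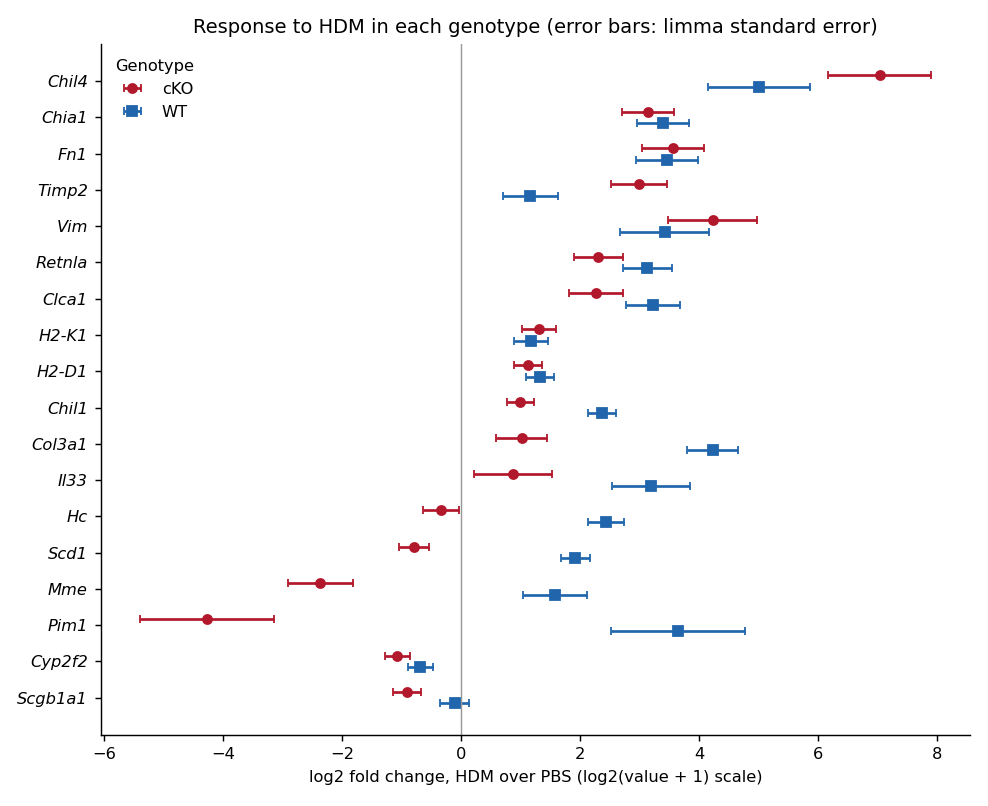
Log2 fold change of HDM over PBS with its limma standard error for 18 genes, with cKO (red circles) above WT (blue squares) for each gene. Chil4, Chia1, Fn1 and both H2 genes lie to the right of 0 in both genotypes, whereas Scd1 and Hc lie left of 0 in cKO and right of 0 in WT.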

How the data were processed

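RNA-seq libraries of 8 samples were read from 1 deposited table. Its values are signal of the authors' making, read counts per gene after the authors' normalization. Per the submitters' processing notes, HOMER and DESeq2 were used with build mm10. Aligner, annotation, versions and strand setting of the counting are not stated there, so overlapping, antisense and near-identical genes may share reads. In each library 100% of the values were whole multiples of the value of 1 read within a tolerance of 0.01 reads, which recovered 232556 to 593200 reads per library. Floors of 3 reads, exact (Clopper-Pearson) 95% intervals of shares and intervals of read ratios cover counting error only.

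Values were tested as log2(value + 1) with limma 3.58.1 in R 4.3.3, for genes with a mean of at least 10, with 1 mean per group over all 8 libraries, a variance trend and two-sided tests. Benjamini-Hochberg adjustment ran over the 7512 genes, with passing set at an adjusted p under 0.05. Alternatives were pseudocounts of 5 and 0.2, other filters, scalings and variance models, a replicate block, fits without 1 library at a time, and edgeR 4.0.16 (quasi-likelihood) and DESeq2 1.42.0 on the recovered reads. The gene tests were tried on simulated data.

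The genes, the comparison and the 40 gene lists were chosen with earlier results of these data known, so lists are described by counts and medians and not tested. Named genes are those that passed, the 10 of smallest p in each direction among genes with no overlap between the cKO groups, the members of smallest p in each list, and genes of the pathway followed throughout. Small RNAs and genes with clone or predicted names are not named. Medians that change sign between scalings are given with the other value. Promoters are from RefSeq and gene positions from the GENCODE annotation of mm10. Sequences were aligned with Biopython 1.88.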

Additional observations from a re-analysis of the deposited data

Results flagged for a closer look

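Scd1 and Hc are listed because their responses to HDM differed between the genotypes by the test of the difference itself. The response of Scd1 in cKO minus that in WT was -2.71 log2 units, and that of Hc was -2.77. Alveolar type 2 markers were higher in both WT HDM libraries than in the other 6, as given with these genes, and their part in either result was not tested.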

How the results depend on the processing

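For cKO HDM against cKO PBS 4 genes passed, against counts over all genes tested of 14 with a pseudocount of 5 (11 higher and 3 lower), 16 with a minimum mean of 50 (12 and 4, of 1803 tested), 12 under quantile normalization (11 and 1), 28 with DESeq2 (21 and 7), 1 without a variance trend, and 0 with a pseudocount of 0.2, with no filter on low values or with the 4 cKO libraries alone in the fit. For the difference of the responses, 2 genes passed, against 12, 9, 9 and 27 under the first 4 of these, 7 with edgeR, and 0 without a trend, with a pseudocount of 0.2 or with no filter. Leaving out 1 library gave 0 to 320 genes for cKO HDM against cKO PBS and 0 to 115 for the difference. The highest counts came without the second cKO PBS library (320 and 115) and the first (54 and 19), and 11 genes were shared between the 320 and the 54. The cause was not tested. Recomputed size factors, robust variances, library weights and reads thinned to equal depth (chosen after seeing the data) moved neither count by more than 1.5 times. Deviations of same-numbered libraries correlated at -0.02 to 0.02 across genes. Such values cannot exclude something shared that touches only some genes, and what the replicate number stands for is not stated. With a replicate block 5 and 3 genes passed. Chil4, Chia1 and Fn1 passed in 14 of 22 alternatives each and Timp2 in 12, with a positive fold change in all of them. Depth limits low genes most, because 3 reads are 4.88 normalized counts in the first cKO PBS library.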

Other observations

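Genes of the circadian clock had no common direction in cKO cells. Of 21 tested members 3 were higher and 3 lower at an unadjusted p under 0.05 (14.3% each), and none passed with limma. Over all genes tested 5.38% were higher and 2.4% lower at that threshold. Per2, a repressor of the clock, had 51.5 and 53.2 normalized counts in cKO HDM, against 30.9 and 7.62 in cKO PBS. Arntl, its activator, had 1.45 and 9.97 in cKO HDM against 16.3 and 33.0 in cKO PBS. In WT, Per2 had 7.17 and 10.3 under HDM against 41.3 and 25.5 under PBS, and its response differed between the genotypes by 3.48 ± 0.99 log2 units (limma unadjusted p = 0.0030, adjusted p = 0.430).

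Slc4a2, an anion exchanger, had 199.6 and 127 normalized counts in cKO HDM against 56.9 and 38.1 in cKO PBS, and 136 and 79.9 in WT HDM libraries, with 88.0 and 90.0 in WT PBS. Foxa2, a transcription factor of lung epithelium, had 79.8 and 85.5 in cKO HDM against 21.1 and 50.8 in cKO PBS. Cytosolic ribosomal protein genes had a median of -0.18 over 76 members. At an unadjusted p under 0.05, 3 were lower (3.95%, against 2.4% of all genes) and 0 higher (against 5.38%). None of these genes passed with limma.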
